A study of Homo sapiens with 6 samples.

Results

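CXCL8 and a group of cytokine, chemokine and inhibitor genes tied to the transcription factor NF-kB were followed in glioblastoma cells after knock-down of the long non-coding RNA HOTAIRM1. The group holds 10 of the 59074 listed genes: the chemokines CXCL8, CXCL1, CXCL2, CXCL3 and CCL2, the cytokines IL6, LIF and IL1B, and the inhibitors NFKBIA and TNFAIP3. They were chosen by function and selected on measured values, since the levels and changes of these same libraries were known when the group was named. Their values are therefore a description without a test. RNA of T98G, U251 and LN-229, established lines of glioblastoma, was sequenced in 6 libraries. In each cell line, 1 library came from cells transfected with a non-target siPOOL, a pool of siRNAs without an intended target (siControl), and 1 from cells transfected with a siPOOL against HOTAIRM1 (siHOTAIRM1). Lipofectamine RNAiMAX carried the siPOOLs into the cells of both groups, and RNA was taken 72 h later. The sample titles write LNT229 where the cell line entry gives LN-229, and the name of the entry is used here. Replicate libraries within a line do not exist, so p-values rest on the spread between the 3 cell lines. In the limma fits, the spread of a gene is drawn toward that of genes of similar level. Only the paired statistic uses the spread of each gene alone.

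Levels are the deposited CPM. The depth, taken from the worth of 1 read in the low values, is given in M reads, siControl before siHOTAIRM1. It was 88.3 and 104 for LN-229, 69.1 and 72.7 for T98G, and 52.3 and 101 for U251. A log2 ratio is given only where both libraries of a cell line held more than 3 reads, taken as the floor. This floor lay between 0.0289 CPM in the siHOTAIRM1 library of LN-229 and 0.0574 CPM in the siControl library of U251. Intervals of levels are 95% Wilson intervals, and intervals of log2 ratios are exact binomial intervals. These intervals and floors cover counting error only. A change is log2(CPM + 1) with siHOTAIRM1 less that with siControl, a scale that understates the change of low genes. Genes that averaged 1 CPM or more, 14294 in all, were tested. Their median change was 0.01 for LN-229, -0.19 for T98G and -0.03 for U251. Changes of the members in T98G are for this reason also given relative to the median.

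HOTAIRM1 (ENSG00000233429), the target of the knock-down, was at 1.99 CPM with siControl and 0.952 CPM with siHOTAIRM1 in LN-229. It was at 3.49 and 2.15 CPM in T98G and at 1.27 and 0.623 CPM in U251. Each siHOTAIRM1 library was thus below the siControl library of its cell line. Over the 3 cell lines, the change was -0.54 (SE 0.12, limma, Benjamini-Hochberg adjusted p = 0.0146 with lines as blocks), lower in 3 of 3. The adjusted p from limma was 1.0 without the block, 0.170 with median centring, 0.204 with rescaling, 0.677 without a filter, 0.126 with a filter of 0.1 CPM, 0.0711 without LN-229 and 0.435 without T98G, and it was 0.637 from the paired statistic.

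The glial labels of the cells were checked against 8 markers of glioma and astroglia. VIM, an intermediate filament protein, was the most abundant of them by the mean over the 6 libraries. It was at 635 and 652 CPM in LN-229, 403 and 254 CPM in T98G, and 1794 and 1309 CPM in U251. CD44, a hyaluronan receptor, was at 329 and 304 CPM in LN-229, 780 and 623 CPM in T98G, and 819 and 572 CPM in U251. In T98G, CD44 was above VIM. GFAP, the astrocyte filament protein, was at 42.5 and 20.7 CPM in U251 and at most 0.317 CPM in the other lines. AQP4, the water channel of astrocyte endfeet, did not exceed 0.0341 CPM in any library. SOX2, a stem cell factor, was at 8.15 and 8.60 CPM in LN-229, 91.4 and 117 CPM in U251, and at most 1 read in T98G. S100B, a calcium-binding protein of astrocytes, was at 21.1 and 24.7 CPM in LN-229, 2.53 and 2.06 CPM in U251, and at 0 reads in T98G. NES, a filament protein of neural precursors, was at 368 and 360 CPM in LN-229, 329 and 507 CPM in U251, and at most 0.956 CPM in T98G. OLIG2, a factor of the oligodendrocyte lineage, was at 1.43 and 1.69 CPM in LN-229, 0.956 and 0.578 CPM in T98G, and at most 3 reads in U251. T98G thus had few reads of GFAP, AQP4, SOX2 and S100B, while LN-229 had S100B, SOX2 and NES with little GFAP. With siHOTAIRM1, VIM was lower in T98G and U251, CD44 in each line and GFAP in U251, while NES and SOX2 were higher in U251. The part of these markers in the changes of the members was not tested.

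NF-kB is a family of transcription factors held in the cytoplasm by inhibitor proteins. Receptors for TNF, interleukin 1 and microbial products activate a kinase complex that marks the inhibitor for degradation, and the freed factor enters the nucleus and switches on chemokine and cytokine genes along with genes for its own inhibitors. In glioblastoma, chemokines of this kind attract neutrophils and monocytes and act on vessels, and IL6 and LIF signal through JAK kinases and STAT3.

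CXCL8 (ENSG00000169429), the chemokine interleukin 8 that draws neutrophils, occupies chr4:73740519-73743716 (plus strand, hg38). It was at 363 CPM (interval 359 to 367) with siControl and 352 CPM (348 to 356) with siHOTAIRM1 in LN-229. The T98G libraries held 43.9 CPM (42.4 to 45.5) and 12.1 CPM (11.3 to 12.9), those of U251 13.2 CPM (12.3 to 14.2) and 2.36 CPM (2.08 to 2.68). The order of the libraries put both LN-229 libraries first and the siHOTAIRM1 library of U251 last, and the only neighbours whose intervals overlapped were U251 siControl and T98G siHOTAIRM1.

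The log2 ratio of CXCL8 without a pseudocount was -0.04 in LN-229 (interval -0.06 to -0.02), -1.86 in T98G (-1.97 to -1.76) and -2.48 in U251 (-2.70 to -2.27). The level decreased by 2.93% in LN-229, where the siControl level was 8.25 times that of T98G and 27.5 times that of U251. On the log2(CPM + 1) scale, the change was -2.08 in U251 and -1.78 in T98G, the latter -1.59 after subtraction of the median. Among the 14294 tested genes, CXCL8 held place 4 from the largest fall in T98G, place 7 in U251 and place 4970 in LN-229. The mean over the 3 cell lines was -1.30 (SD 1.10), and it was -1.93 without LN-229. The cell line with the highest level was thus the line with the smallest change. In bulk samples, fewer cells with a transcript and less RNA per cell cannot be told apart.

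**Figure D1:**
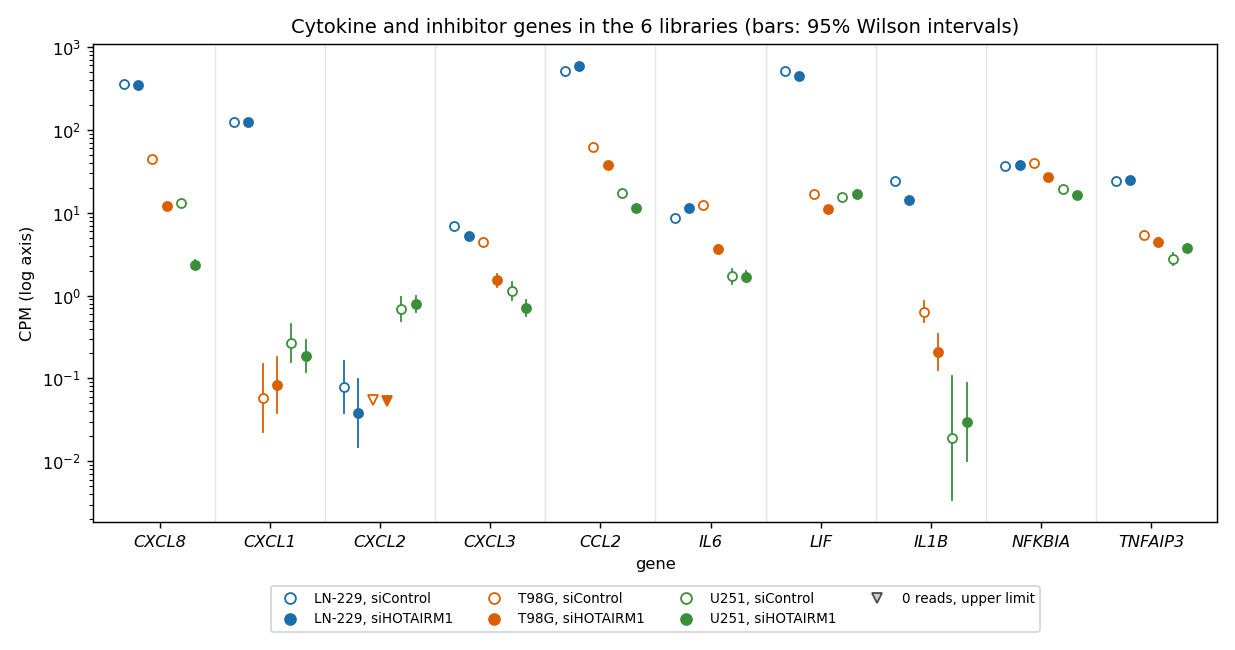
CPM of the 10 genes on a log axis in the 6 libraries, with open circles for siControl, filled circles for siHOTAIRM1, bars for 95% Wilson intervals and triangles for the upper limit at 0 reads. CXCL8 was at 363 and 352 CPM in LN-229, 43.9 and 12.1 CPM in T98G, and 13.2 and 2.36 CPM in U251.

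CXCL1, CXCL2 and CXCL3 are close relatives of CXCL8 that bind the same neutrophil receptor CXCR2. CXCL1 was at 124 CPM with siControl and 123 CPM with siHOTAIRM1 in LN-229. It was at 0.0580 CPM (4 reads) and 0.0826 CPM (6 reads) in T98G, and at 0.268 CPM (14 reads) and 0.188 CPM (19 reads) in U251. CXCL1 was thus a gene of LN-229 in these libraries, with a siControl level 461 times that of U251 and changes of -0.005, 0.03 and -0.09 in LN-229, T98G and U251. Against the median, the change in T98G was 0.22, and the counting interval of its log2 ratio ran from -1.57 to 2.78.

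CXCL3 was at 6.96 and 5.31 CPM in LN-229, 4.47 and 1.53 CPM in T98G, and 1.15 and 0.712 CPM in U251. The log2 ratio of CXCL3 was -0.39 in LN-229 (interval -0.56 to -0.22), -1.55 in T98G (-1.88 to -1.23) and -0.69 in U251 (-1.21 to -0.17). Along with CXCL8, CXCL3 was lower in all 3 cell lines, which no other member was. Its mean change on the log2(CPM + 1) scale was -0.59 (SD 0.45), with -0.93 in T98G after subtraction of the median. Without T98G, the mean was -0.33.

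CXCL2 was at 0.0794 CPM (7 reads) and 0.0386 CPM (4 reads) in LN-229 and had 0 reads in both T98G libraries, which allows up to 0.0556 CPM with siControl and 0.0528 CPM with siHOTAIRM1. In U251, it was at 0.689 CPM (36 reads) and 0.791 CPM (80 reads), the highest of the 3 lines. CXCL1, by contrast, had its highest level in LN-229 and its lowest in T98G. For CXCL2, the order of LN-229 and T98G is not resolved, since their counting intervals overlap. The log2 ratio of CXCL2 in U251 was 0.20 with an interval from -0.39 to 0.81, so a change was not detectable at this depth.

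The paralogs can share reads. Of the distinct stretches of 87 bases, the length of a trimmed read, in the annotated transcripts of CXCL2, 6.49% also occur in CXCL3, and 4.02% of those of CXCL3 occur in CXCL2. The longest stretch that CXCL2 and CXCL3 share has 178 bases, so part of their reads is uncertain between them. CXCL1 shares no such stretch with CXCL2 or CXCL3, with longest identical runs of 77 and 55 bases, and CXCL8 shares none with any of them.

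The CXC genes lie side by side. From the start of CXCL8 to the end of CXCL2 on chromosome 4, from 73740519 to 74099196, the annotation places 9 protein-coding genes that the CPM table lists, 4 of them members. Each of the other 5 had at most 6 reads over the 6 libraries: CXCL6, PF4V1 and PF4 had 0, PPBP had 1 and CXCL5 had 6. Between CXCL8 and CXCL1, at 0 and 128.9 kb, CXCL6 and PF4V1 had 0 reads in LN-229, where both neighbours were above 100 CPM.

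**Figure D2:**
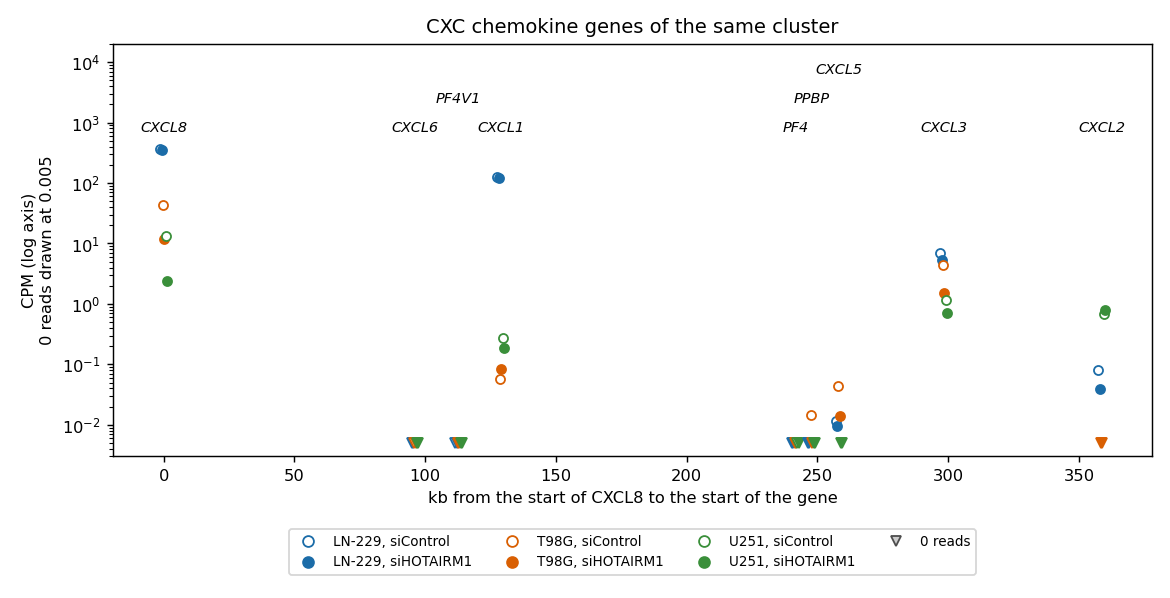
CPM on a log axis against the distance in kb from the start of CXCL8 for the 9 listed CXC genes of the cluster, with open symbols for siControl, filled symbols for siHOTAIRM1 and triangles for 0 reads. CXCL8, CXCL1 and CXCL3 stood above 5 CPM in LN-229, and each of the 5 genes that are not members had at most 6 reads over the 6 libraries.

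The stretches that carry a match to the NF-kB motif are shown because CXCL8 and CXCL1 share the matched letters of 1 site. The counting intervals of their log2 ratios were apart in T98G and U251, where CXCL1 had only 4 to 19 reads per library. In LN-229, both were close to level, with log2 ratios of -0.04 for CXCL8 and -0.005 for CXCL1. Promoters of 300 bases, 250 before and 50 after the start, were found by symbol in RefSeq (GRCh38.p14) for 8 of the 10 members, without CCL2 and LIF. The motif GGNNNTTCC, searched on both strands, was in 7 of the 8 and in 20.1% of 35116 promoters. It was absent from the window of IL1B. In the lines that follow, capitals mark the match, 10 bases stand on each side, and the sequence reads 5' to 3' on the strand of the gene.
CXCL8, chr4:73740468-73740496, plus strand: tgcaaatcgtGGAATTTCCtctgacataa
CXCL1, chr4:73869305-73869333, plus strand: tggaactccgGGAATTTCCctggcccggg
CXCL2, chr4:74099254-74099282, minus strand: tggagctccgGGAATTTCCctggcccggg
CXCL3, chr4:74038749-74038777, minus strand: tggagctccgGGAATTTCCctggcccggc
IL6, chr7:22727118-22727146, plus strand: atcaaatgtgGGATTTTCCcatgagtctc
NFKBIA, chr14:35404812-35404840, minus strand: tgactggcttGGAAATTCCccgagcctga
TNFAIP3 had 2 matches, 67 and 55 bases before its start, and is not printed. NFKBIA had another match 242 bases before its start. The stretch of CXCL3 lies within an annotated exon of GENCODE v44, and those of the others printed lie in no exon of their gene.

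Distances are counted from the start of the RefSeq entry, which for CXCL8 lies 50 bases inside the gene as GENCODE places it. The same 9 letters stood 91 bases before the start of CXCL8, 78 before that of CXCL1, 77 before that of CXCL2 and 78 before that of CXCL3. CXCL1, CXCL2 and CXCL3 had another match 53 bases before the start, which CXCL8 lacked. Over the whole window, the promoters of CXCL1 and CXCL3 were identical at 82.5% of aligned positions, while CXCL8 was identical to the others at 42.6% to 44.9%. Of the 8 members searched, CXCL8 alone had a match to the AP-1 motif TGANTCA, 137 bases before its start, which 7.71% of all promoters hold. The C/EBP motif TTGCNNAA, in 10.5% of all promoters, was matched in CXCL2, IL6 and IL1B. The match in CXCL2 lies 188 bases before its start, that in IL6 155 and that in IL1B 215. A match describes letters in this window, and binding was not measured here.

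CCL2 (ENSG00000108691), the chemokine that recruits monocytes, was at 520 CPM with siControl and 591 CPM with siHOTAIRM1 in LN-229. It was at 62.5 and 37.7 CPM in T98G and at 17.4 and 11.5 CPM in U251. Its log2 ratio was 0.18 in LN-229 (interval 0.17 to 0.20), -0.73 in T98G (-0.80 to -0.66) and -0.60 in U251 (-0.73 to -0.47). Relative to the median of all genes, the change in T98G was -0.52. CCL2 thus followed CXCL8 in the order of the cell lines, with a higher level after knock-down in LN-229. The genes next to it on chromosome 17, CCL7, CCL11 and CCL8, did not exceed 0.434 CPM in any library.

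IL6 (ENSG00000136244), the cytokine of the acute phase response, was at 8.72 and 11.4 CPM in LN-229, 12.4 and 3.64 CPM in T98G, and 1.70 and 1.69 CPM in U251. Its highest siControl level was in T98G, unlike that of CXCL8, CCL2 and LIF. The log2 ratio of IL6 was 0.38 in LN-229 (interval 0.25 to 0.52), -1.76 in T98G (-1.97 to -1.56) and -0.01 in U251 (-0.39 to 0.37). In T98G, IL6 held place 6 from the largest fall. The change on the log2(CPM + 1) scale there was -1.52, or -1.33 relative to the median of all genes. A change of IL6 in U251, with 89 and 171 reads, was not detectable at this depth. Its mean over the cell lines was -0.39 (SD 0.99), and without T98G it was 0.17.

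LIF (ENSG00000128342), a cytokine of the IL6 family that sustains stem cells, was at 518 and 446 CPM in LN-229, 17 and 11.0 CPM in T98G, and 15.6 and 16.8 CPM in U251. The LN-229 siControl level was 30.4 times that of T98G and 33.2 times that of U251. Its log2 ratio was -0.21 in LN-229 (interval -0.23 to -0.20), -0.63 in T98G (-0.77 to -0.50) and 0.10 in U251 (-0.02 to 0.23). Relative to the median of all genes, the change in T98G was -0.40.

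IL1B (ENSG00000125538), the cytokine interleukin 1 beta, was at 24.0 and 14.3 CPM in LN-229, 0.637 and 0.206 CPM in T98G, and at 1 and 3 reads in U251. Its log2 ratio was -0.75 in LN-229 (interval -0.85 to -0.65) and -1.63 in T98G (-2.58 to -0.75), where the libraries held 44 and 15 reads. No ratio is given for U251, and the change in T98G after subtraction of the median was -0.25. In LN-229, IL1B held place 36 from the largest fall among the 14294 tested genes, the nearest to the end of all members there. IL1B thus had the lowest change of the members in the line where CXCL8 was close to level.

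The inhibitors NFKBIA and TNFAIP3 are genes that NF-kB switches on and whose products limit its activity. NFKBIA, which encodes the inhibitor that holds NF-kB in the cytoplasm, was at 36.9 and 38.1 CPM in LN-229, 39.3 and 26.7 CPM in T98G, and 19.6 and 16.2 CPM in U251. Its log2 ratio was 0.05 in LN-229 (interval -0.02 to 0.11), -0.56 in T98G (-0.65 to -0.48) and -0.27 in U251 (-0.39 to -0.16). Its siControl level in LN-229 was 0.937 times that of T98G, the narrowest gap between these lines of all members. After subtraction of the median, its change in T98G was -0.35.

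TNFAIP3, which encodes the ubiquitin-editing enzyme A20, was at 24.4 and 24.7 CPM in LN-229, 5.43 and 4.41 CPM in T98G, and 2.78 and 3.74 CPM in U251. Its log2 ratio was 0.02 in LN-229 (interval -0.07 to 0.10), -0.30 in T98G (-0.52 to -0.08) and 0.43 in U251 (0.15 to 0.72). Relative to the median of all genes, the change in T98G was -0.06. In U251, TNFAIP3 was thus higher after knock-down while CXCL8 was lower.

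**Figure D3:**
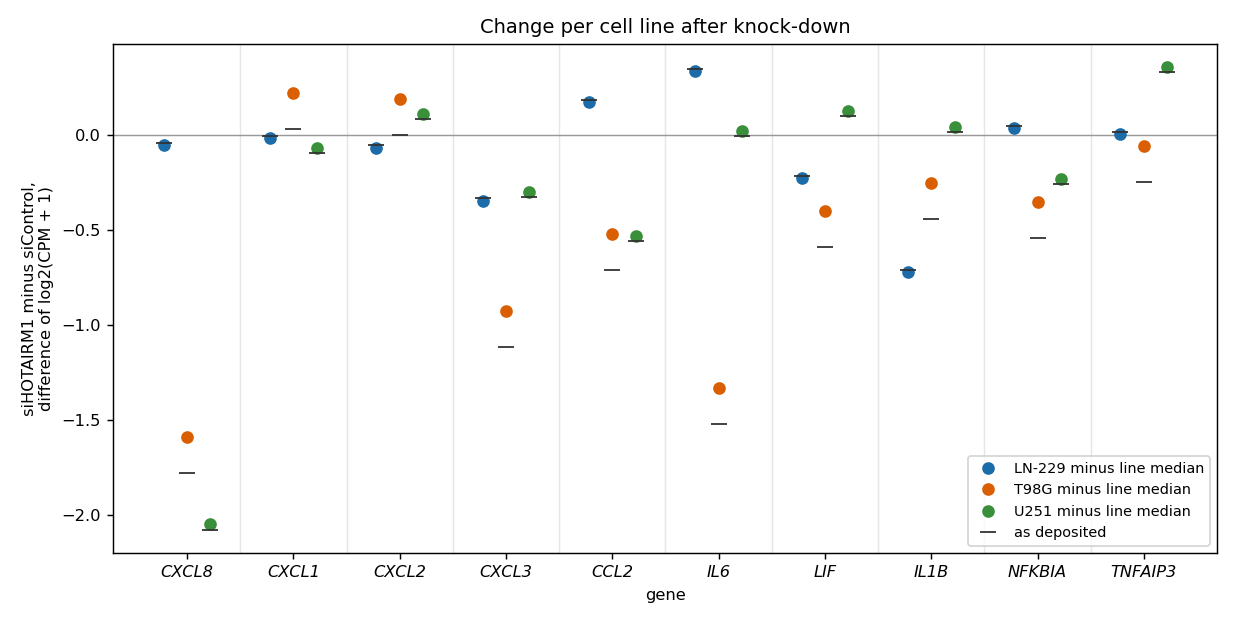
Change of each of the 10 genes after knock-down in each cell line, as the difference of log2(CPM + 1), with coloured circles relative to the median of all tested genes and dashes as deposited. CXCL8 was at -1.59 in T98G and -2.05 in U251 relative to the median, and at -0.05 in LN-229.

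Levels per kb of exon sequence allow a rough comparison of genes. The length is the union of exons over all annotated transcripts, which can exceed that of the expressed RNA. Close ranks on this scale are therefore not resolved. CCL2 had the highest siControl level of the members in each cell line, with 269 CPM per kb for LN-229, 32.3 for T98G and 9.01 for U251. In LN-229, CXCL8 followed with 140 CPM per kb, LIF with 134 and CXCL1 with 90.8, and NFKBIA was next with 10.9. In U251, NFKBIA followed CCL2 with 5.77 CPM per kb, and CXCL8 was at 5.10. CCL2, CXCL8, LIF and CXCL1 were therefore far above the inhibitor NFKBIA in LN-229, whereas in U251 CXCL8 was near it. CCL2 was above CXCL8 on this scale in each of the 6 libraries, with 305 and 136 CPM per kb in LN-229 after knock-down.

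Both LN-229 libraries were above the other 4 for 7 of the 9 tested members, against 20.6% of the 14294 tested genes. The exceptions were IL6 and NFKBIA, and CXCL2 was the member under the filter. CXCL1 and IL1B averaged under 1 CPM in both T98G and U251 and passed the filter only through LN-229. The members were also selected on these levels, so nothing is read from this comparison. In the limma fit, 2 of these 9 members, CXCL8 and CXCL3, were called lower, where 1.59% of the tested genes were called lower and 0.413% higher. Since the members were selected on these values, nothing is read from this count. It was 0 of the members in the fits without the block, with the paired statistic, with median centring, with rescaling, with no filter, with the filter of 0.1 CPM and without T98G. A value lower by at least 1 on the log2(CPM + 1) scale was seen for 3 of the 10 members in T98G (0.385% of tested genes), CXCL8, CXCL3 and IL6. It was seen for CXCL8 in U251 (1.59%) and for 0 members in LN-229 (0.105%). A value higher by at least 1 was seen for 0 members in LN-229 (0.126%), T98G (0.084%) and U251 (0.483%). The median change of the 9 tested members was -0.00 for LN-229, -0.59 for T98G and -0.09 for U251, beside 0.01, -0.19 and -0.03 for all tested genes.

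**Figure D4:**
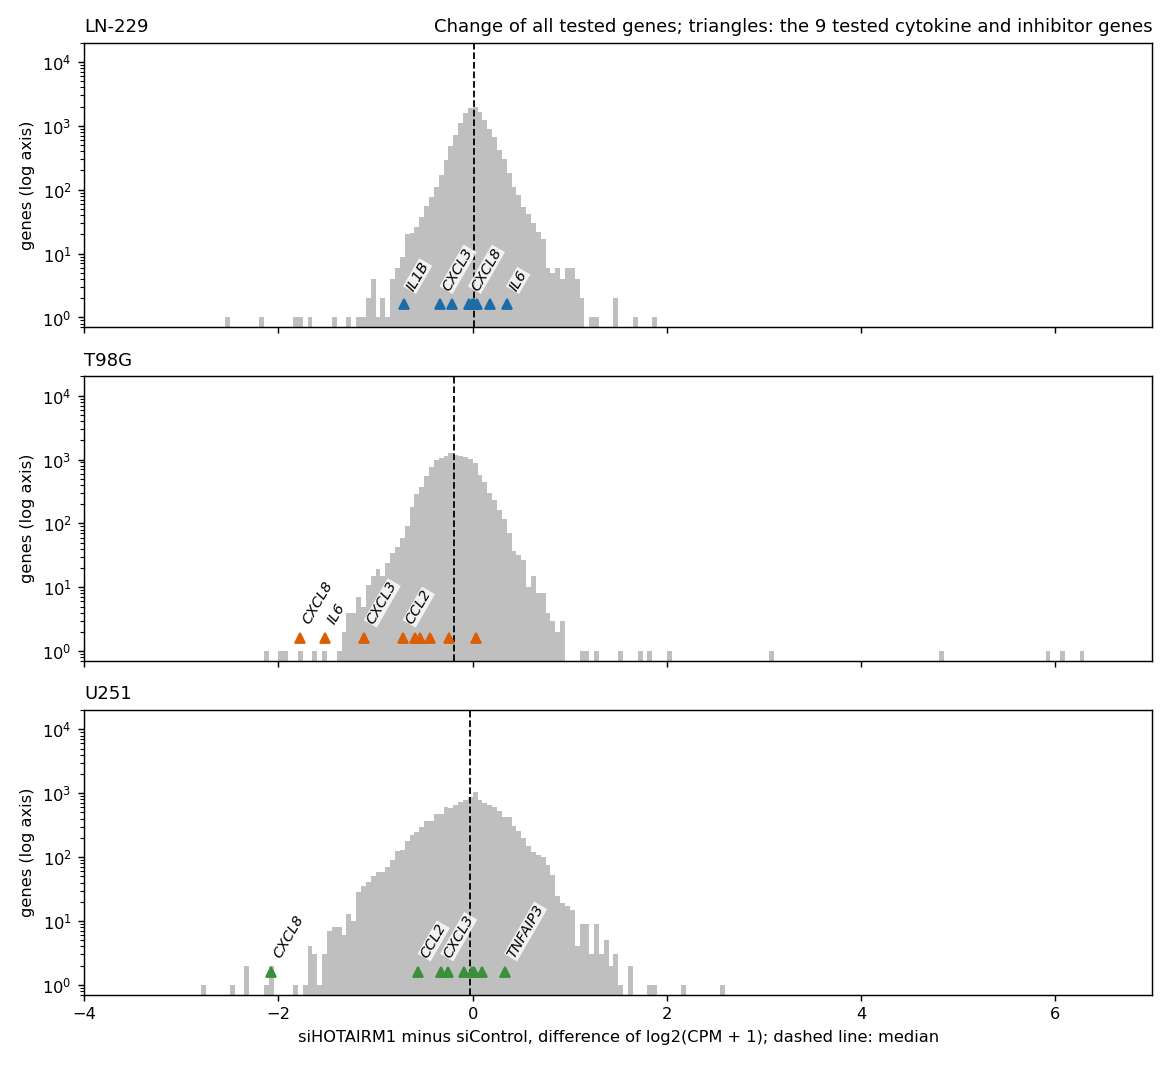
Distribution of the change of the 14294 tested genes in each cell line as differences of log2(CPM + 1), with the number of genes on a log axis, a dashed line at the median and triangles for the 9 tested members. CXCL8 and IL6 stood at -1.78 and -1.52 in T98G, CXCL8 at -2.08 in U251, and IL1B at -0.71 in LN-229.

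The other genes of the pathway were followed in 9 lists with 131 genes, of which 97 were tested. In the limma fit, 2 of the 97 were called lower and 0 higher, and 16 and 3 had a p under 0.05 before adjustment. These are 2.06% called lower, against 1.59% of all tested genes, and 19.6% with a p under 0.05 in either direction, against 18.3% of all tested genes. In these limma counts, the lists as a whole were therefore close to the background. This does not cover changes of at least 1 within a cell line, which are given further below with their shares. A limma fit that left out the block called 0, and 0 had a p under 0.05 before adjustment. With each library centred on its median, limma called 0, with 8 lower and 12 higher at an unadjusted p under 0.05. Over all genes, limma then called 26 lower and 15 higher, against 227 and 59 as deposited. Without T98G, limma called 0 of the 97, and 5 lower and 4 higher had an unadjusted p under 0.05. The median change over the cell lines was -0.08 for these 97 genes and -0.07 for all tested genes.

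The called genes encode partners of the TNF receptor complex, and both are known NF-kB target genes. TRAF1, an adaptor of this complex, was at 15.7 and 7.73 CPM in LN-229, 2.2 and 0.825 CPM in T98G, and 4.73 and 2.65 CPM in U251. Its change was -0.80 (SE 0.14, adjusted p = 0.00085 from limma), lower in 3 of 3 cell lines, with values of -0.94, -0.81 and -0.65. BIRC3, a ubiquitin ligase of the complex, was at 49.7 and 34.3 CPM in LN-229, 67.6 and 27.3 CPM in T98G, and 7.81 and 5.79 CPM in U251. Its change was -0.73 (SE 0.15, adjusted p = 0.00828 from limma), lower in 3 of 3 cell lines. With median centring, the adjusted p from limma was 0.0728 for TRAF1 and 0.137 for BIRC3. Over all alternatives, the adjusted p (limma or the paired statistic) ranged from 1.44e-05 to 1.0 for TRAF1 and from 0.000232 to 1.0 for BIRC3. In LN-229, where CXCL8 was at -0.05 relative to the median, TRAF1 was at -0.95, beside -0.62 in T98G. The log2 ratio of TRAF1 without a pseudocount was -1.02 in LN-229 and -1.42 in T98G.

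CXCR1 and CXCR2, the signalling receptors of CXCL8 on neutrophils, had 0 reads in the 6 libraries. ACKR1, a decoy receptor that binds CXCL8 and CXCL1, was at 0.872 CPM (77 reads) and 1.19 CPM (124 reads) in LN-229 and at most 1 read elsewhere. CCR2, the receptor of CCL2, did not exceed 0.0291 CPM. Receptors of IL6 and LIF were above the filter. Of the receptor list (6 of 13 tested, 0 called), IL6ST, the shared signalling subunit gp130, was the most abundant with 223 to 783 CPM. The subunits of NF-kB itself (5 of 5 tested, 0 called) had their highest levels in LN-229 for all 5 genes. Over the 97 tested genes of the lists, both LN-229 libraries were above the other 4 for 24 (24.7%), against 20.6% of all tested genes. The lists were chosen with earlier results known, so nothing is read from the count of the subunits. NFKB1, the most abundant subunit, was at 59.3 and 57.0 CPM in LN-229, 18.4 and 14.2 CPM in T98G, and 16.7 and 16.4 CPM in U251.

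Of the other lists, 0 genes were called in either direction in other chemokines (3 of 17 tested), other cytokines (7 of 13), other inhibitors (12 of 12), other target genes (19 of 21), binding proteins of AU-rich cytokine mRNA (10 of 10) and the JAK-STAT3 arm (9 of 11). Their most abundant tested genes by the mean over the 6 libraries were CXCL12, CSF1, OTULIN, SOD2, RC3H2 and PTPN11. These ranks did not all hold within single cell lines. CXCL12, a chemokine that guides stem cells and lymphocytes, was at 70.9 and 64.6 CPM in T98G and at most 0.0794 CPM in the other lines. TNF, the classic trigger of the pathway, did not exceed 0.0396 CPM. In the list of upstream receptors, adaptors and kinases (26 of 29 tested), IRAK1, a kinase below the interleukin 1 receptor, had the highest mean, with 48.5 to 235 CPM. In T98G, other genes of this list were above IRAK1.

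Single genes of these lists had a difference of at least 1 in a cell line. Of the 97 tested, 3 were higher by that much for LN-229 (0.126% of all tested genes) and 1 for U251 (0.483%). For T98G, 2 were lower, SOD2 and BIRC3 (0.385%). The other counts were 0, lower for LN-229 (0.105%) and U251 (1.59%) and higher for T98G (0.084%). The lists were chosen with earlier results known, so nothing is read from these counts. SOD2, the mitochondrial superoxide dismutase, was at 145 and 315 CPM in LN-229, 116 and 45.3 CPM in T98G, and 67.3 and 60.9 CPM in U251. SAA1, an acute phase protein, was at 3.31 and 11.2 CPM in LN-229, 13.3 and 9.09 CPM in T98G, and at 0 reads in U251. SOCS3, the feedback inhibitor of the IL6 receptor, was at 7.25 and 15.6 CPM in LN-229, 33.3 and 21.2 CPM in T98G, and 28.9 and 23.4 CPM in U251. These genes were higher with siHOTAIRM1 in LN-229 and lower in T98G, the same directions as IL6. IER3, an early response gene that protects from cell death, was at 2.05 CPM with siControl and 7.02 CPM with siHOTAIRM1 in U251, a change of 1.40. It was at 94.6 and 140 CPM in LN-229 and at 7.62 and 6.31 CPM in T98G. None of these changes per line was tested.

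**Figure D5:**
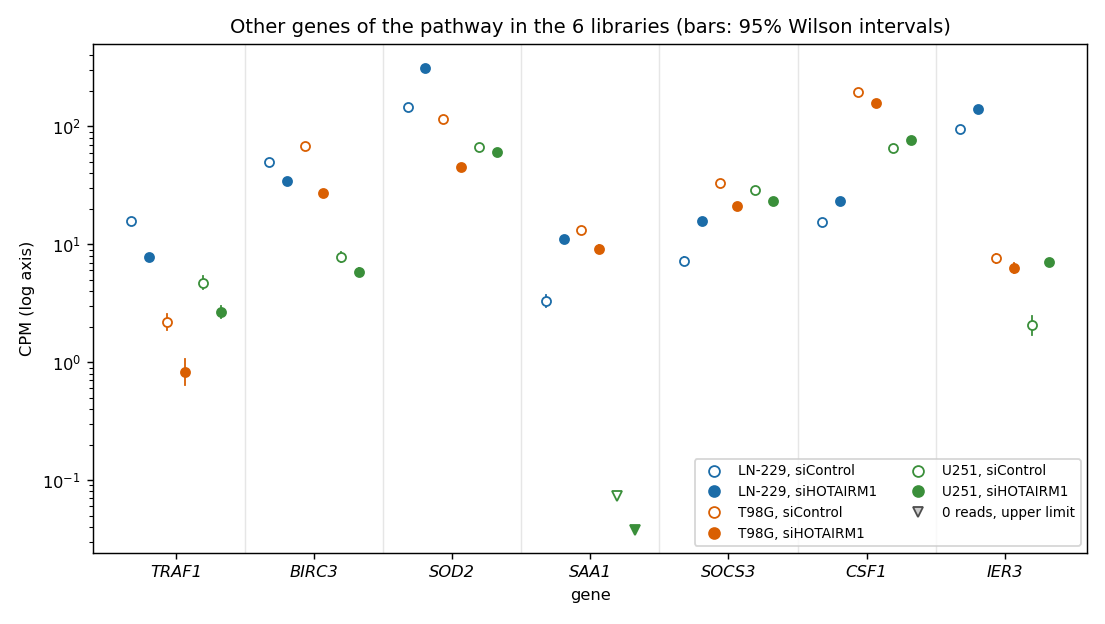
CPM of TRAF1, BIRC3, SOD2, SAA1, SOCS3, CSF1 and IER3 on a log axis in the 6 libraries, with open symbols for siControl, filled symbols for siHOTAIRM1, bars for 95% Wilson intervals and triangles for the upper limit at 0 reads. TRAF1 and BIRC3 were lower with siHOTAIRM1 in each cell line, and SOD2 went from 145 to 315 CPM in LN-229 and from 116 to 45.3 CPM in T98G.

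Leukocytes are another source of these cytokines. The 8 leukocyte markers together were at 0.933 and 1.0 CPM in LN-229, 10.1 and 4.40 CPM in T98G, and 3.37 and 1.65 CPM in U251. CD68, a lysosomal protein of macrophages that other cells also express, was the most abundant by the mean over the 6 libraries and the 1 tested marker. It was at 0.785 and 0.801 CPM in LN-229, 7.80 and 2.72 CPM in T98G, and 1.06 and 0.324 CPM in U251. CD68 was called lower (change -0.62, SE 0.15, adjusted p = 0.0223 from limma, lower in 2 of 3 cell lines). From limma, the adjusted p was 1.0 without the block, 0.205 with median centring and 0.590 without T98G, and it was 0.637 from the paired statistic. CSF1R, the macrophage growth factor receptor, was at 0.608 and 0.289 CPM in T98G and at 2.12 and 1.04 CPM in U251, above CD68 in U251. Its log2 ratio was -1.07 in T98G (interval -1.90 to -0.29) and -1.03 in U251 (-1.43 to -0.64), with a mean under the filter, so that it was not tested. ITGAM, an integrin of myeloid cells, was at 1.32 and 1.14 CPM in T98G, with an interval of the log2 ratio from -0.65 to 0.24. CD14, a monocyte receptor, was at 0.203 and 0.138 CPM in T98G, with an interval from -1.89 to 0.72. In U251, CD14 was at 0.115 and 0.247 CPM, with an interval from -0.22 to 2.68. LYZ, the lysozyme gene, did not exceed 0.0870 CPM. PTPRC, the common leukocyte antigen, did not exceed 0.0870 CPM, and AIF1 and CD3E did not exceed 1 read. The 5 endothelial markers (0 tested) together were at 0.635 and 0.696 CPM in LN-229, 1.51 and 1.51 CPM in T98G, and 3.10 and 1.6 CPM in U251. CDH5, the cadherin of vessel walls, was the most abundant by the mean over the 6 libraries, through U251 alone. It was at 2.83 and 1.30 CPM in U251 (log2 ratio -1.12, interval -1.47 to -0.77), and CLDN5 had 0 reads. TEK, a vessel receptor, was at 0.170 and 0.289 CPM in LN-229, 0.652 and 0.770 CPM in T98G, and at most 0.0495 CPM in U251. VWF, a clotting factor of vessel walls, was at 0.362 and 0.206 CPM in T98G. It was at 0.0907 and 0.176 CPM in LN-229 and at 0.191 and 0.226 CPM in U251. PECAM1, a junction protein, was at 0.374 and 0.212 CPM in LN-229 and at 0.478 and 0.523 CPM in T98G. In U251, PECAM1 was at most 0.0575 CPM. In LN-229 and T98G, CDH5 was at most 0.0193 CPM, below TEK, VWF and PECAM1. The part of these markers in the changes of the members was not tested.

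Outside the members, the genes most like CXCL8 in level over the 6 libraries were sought by Pearson r of log2(CPM + 1). The candidates were 1226 tested genes with a range of at least 3 on the log2 scale. The nearest were EHD3, an endocytic ATPase (r = 0.974), SH3TC2, an adaptor of endosomes (0.973), NEDD4L, a ubiquitin ligase (0.971), CD22, a lectin of B cells (0.962), and HAPLN3, a hyaluronan link protein (0.961). The libraries of a cell line lie together on this scale, so r describes mainly the order of the lines and has no test. Among the members, r with CXCL8 ran from -0.658 for CXCL2 to 0.979 for CCL2.

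The genes nearest to CXCL8 in their 3 changes were RAB32, a small GTPase (distance 0.69 on the log2 scale), NT5E, the surface enzyme that forms adenosine (0.85), CPA4, a carboxypeptidase (1.03), MAT2B, a subunit of methionine adenosyltransferase (1.04), and MT1E, a metallothionein (1.08). RAB32 was at 9.47 and 3.26 CPM in T98G and 48.1 and 14.4 CPM in U251, with changes of -1.30 and -1.68 and of -0.34 in LN-229. CPA4 was the only one of the 5 with a change in LN-229 above 0, at 0.04. No member was among the candidates, and shared control was not examined.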

How the data were processed

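Total RNA from 6 libraries was sequenced, 1 per cell line and condition. The authors trimmed the reads, aligned them to hg38 with STAR 2.4.1d and the rest with Bowtie, quantified them in Partek with an Expectation-Maximization algorithm on Ensembl genes, and deposited CPM of 59074 genes with 0.0001 added. The listed values of a library sum to 42.9% to 67.2% of the full scale. Between 76.5% and 80.4% of the values above 0.0001 were within 0.05 of whole reads, so tests for counts were not used.

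The 14294 genes that averaged 1 CPM or more were tested on log2(CPM + 1) with limma 3.58.1 in R 4.3.3, with a mean-variance trend, lines as blocks, and Benjamini-Hochberg adjusted p-values at 0.05. The pairing comes from the cell line that the libraries of a pair share. After subtraction of condition means, r was 0.948 to 0.967 between libraries of the same cell line and -0.505 to -0.467 between those of different lines and conditions, a value below 0 that the subtraction itself forces. The fit was tested on simulated data with a common noise level for all genes and the same change in each cell line. Real genes differ in both, so the simulation does not show that the calls hold here. The members and lists were chosen with earlier results of these data known. Members were given as values and changes per line.

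Named genes are the members, HOTAIRM1, list genes that were called, the tested gene of each list with the highest mean CPM, list genes with a change of at least 1 in a line, and 5 genes nearest to CXCL8 by each of the measures given. CXCL6, PF4V1, PF4, PPBP, CXCL5, CCL7, CCL11 and CCL8 are named for their position beside members. CXCR1, CXCR2, ACKR1, CCR2 and TNF, and the markers VIM, GFAP, AQP4, SOX2, S100B, NES, CD44, OLIG2, TEK, VWF, PECAM1, CSF1R, ITGAM, CD14, LYZ, PTPRC, AIF1, CD3E, CDH5 and CLDN5, were named after their values were seen. Gene positions and exon lengths came from GENCODE v44, where 163 of 163 symbols were found. Values and intervals were computed with Python 3.11.15, pandas 2.3.3 and scipy 1.17.1, promoter alignments with Biopython 1.88. The alternatives tried were no block, a paired t-statistic of each gene alone, a pseudocount of 0.1, median centring, rescaling to the listed genes, no filter, a filter of 0.1 CPM and leaving out each cell line. A log2 ratio without pseudocount was added after the data were seen.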

Additional observations from a re-analysis of the deposited data

Results flagged for a closer look

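Among the members and the pathway genes named by rule, those below moved in opposite directions in a pair of cell lines, with counting intervals that left out 0 in both, as deposited and relative to the median change of all genes. Other genes of the lists, such as C3 and NFKBIZ, also met this and are not given here. With 1 library per condition, none of these differences was tested. Relative to the median, IL6 was at 0.34 in LN-229 and -1.33 in T98G, a difference of 1.67. CCL2 differed by 0.70, with 0.17 for LN-229 and -0.53 for U251. SOD2 was at 1.11 in LN-229 and -1.14 in T98G, a difference of 2.25. SAA1 was at 1.49 and -0.31 in these lines, a difference of 1.80. SOCS3 was at 1.0 and -0.44, a difference of 1.44. CSF1, the growth factor of macrophages, was at 0.54 and -0.13, a difference of 0.67.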

How the results depend on the processing

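The counts over all genes, 227 lower and 59 higher, moved with the setting, and the cause was not tested. Without the block, with the paired statistic of each gene alone and without a filter, 0 were called lower and 0 higher by limma or the paired statistic, with 29, 896 and 2477 genes at an unadjusted p under 0.05. With a pseudocount of 0.1, 534 were called lower and 149 higher, with median centring 26 and 15, with rescaling to the listed genes 15 and 10, and with a filter of 0.1 CPM 16 and 3. Leaving out each cell line gave 0 to 239 lower and 0 to 40 higher, with 0 and 0 without T98G (1206 unadjusted).

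Of the pathway genes, 2 were called lower and 0 higher. With a pseudocount of 0.1 this was 5 and 2. It was 0 lower without the block (pairing by cell line), with the paired statistic, median centring, rescaling, no filter and the filter of 0.1 CPM, and 0 to 2 with each cell line left out.

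The change of HOTAIRM1 kept its direction. It was -0.54 without the block (adjusted p = 1.0 from limma), with the paired statistic (0.637), without a filter (0.677) and with a filter of 0.1 CPM (0.126), -0.46 with median centring (0.170) and -0.56 with rescaling (0.204). With a pseudocount of 0.1 it was -0.87 (adjusted p = 0.00302 from limma). Leaving out each cell line gave -0.56 to -0.50, with an adjusted p of 0.0711 without LN-229, 0.435 without T98G and 0.00988 without U251.

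The mean change of CXCL8 was -1.93 to -0.91 with each cell line left out, and -1.22 with median centring. The median change of the members past the filter, -0.36, was -0.40 to -0.11 with each cell line left out. Of 88 values of single members, 3 moved by more than the SD over the lines and 6 changed sign, among CXCL1, CXCL2, IL6 and TNFAIP3. The filter settings are among the 88 and leave the change of a single member as it is by construction. The SD is also wide for some members, with 1.10 for CXCL8 and 0.99 for IL6. These counts are therefore no measure of stability. CXCL1 in T98G and CXCL2 and IL1B in several libraries had few reads, which limits what can be seen of their changes.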

Other observations

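Some genes of the pathway outside the rule for named genes differed in level between the cell lines. They were picked after their values were seen and are given as values without a test. IL1A, a cytokine that acts on the same receptor as IL1B, was at 93.7 CPM with siControl and 57.7 CPM with siHOTAIRM1 in LN-229, and at most 0.325 CPM in T98G and U251. LCN2, an iron-binding defence protein, was at 86.2 and 54.3 CPM in LN-229 and at most 0.0826 CPM in the other lines. ICAM1, an adhesion molecule for leukocytes, was at 247 and 277 CPM in LN-229, and at most 7.33 CPM in the other lines. PLAU, the urokinase protease, had the reverse order, with 0.249 and 0.173 CPM in LN-229, 157 and 78.2 CPM in T98G, and 178 and 129 CPM in U251. C3, the central complement protein, was at 76.9 and 151 CPM in LN-229, 230 and 130 CPM in T98G, and 0.804 and 0.326 CPM in U251. TLR4, the receptor of bacterial lipopolysaccharide, was below siControl with siHOTAIRM1 in each cell line, with 36.6 and 26.5 CPM in LN-229, 51.4 and 38.3 CPM in T98G, and 85.1 and 58.2 CPM in U251.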
